A study of Mus musculus with 5 samples.

Results

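The Vpreb3-type antral granulosa cells of the juvenile mouse ovary were 522 of the 48163 cells in 5 single-cell libraries. A cell was counted when it had at least 1000 detected genes and under 15% of its unique molecular identifiers (UMIs, each tagging 1 captured mRNA) from mitochondrial genes. It also needed a UMI of at least 3 of the 6 markers Vpreb3, Cda, Mug2, Gjc3, Tex14 and Reln, at least 5 UMIs of Inha and at most 1 of Cyp19a1. Cells with any UMI of Slc38a5, Ube2c or Dcn were left out. The cells were therefore chosen on measured values, and the levels of these 11 genes are given as a description, with no test.

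The study profiled dissociated ovaries of untreated C57BL6/J mice aged 2, 3, 4, 5 and 6 wk to follow how successive waves of follicles grow, are lost and are replaced in the juvenile ovary. Each age is 1 library of live cells that excluded the SYTOX Orange dead-cell stain during sorting, made with droplet 3′ chemistry (10x Genomics). The libraries held 9471, 9253, 11077, 7779 and 10583 cells and 124938004, 93438618, 117666094, 107071492 and 144609431 UMIs, in order of age. With 1 library per age no test between ages was possible, and intervals printed for ages cover counting error only.

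Granulosa cells line the follicle, nourish the oocyte and respond to follicle-stimulating hormone (FSH). As a follicle forms its fluid-filled antrum they divide into mural cells along the wall and cumulus cells around the oocyte, and those of a follicle that will ovulate make estradiol through the aromatase Cyp19a1, together with inhibin and activin subunits. Most juvenile follicles are instead lost by atresia, in which granulosa cells die and the follicle is remodeled.

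The 6 markers belong to unrelated pathways. Vpreb3 is known from pre-B cells, where its product associates with immunoglobulin chains, Mug2 is a protease inhibitor of the alpha-2-macroglobulin family, and Tex14 builds the bridges between dividing germ cells. Cda deaminates cytidine, Gjc3 is a connexin, and Reln encodes the secreted glycoprotein reelin. The commonest combination of 3 was Vpreb3 with Mug2 and Tex14, found in 118 of the 522 cells (22.6%), so the promoters of these genes are shown to set the 3 sequences side by side. All 6 markers matched a promoter in the RefSeq table for GRCm38.p6, which runs from 250 bases before to 50 bases after the start, and capitals mark CpG dinucleotides.
Vpreb3: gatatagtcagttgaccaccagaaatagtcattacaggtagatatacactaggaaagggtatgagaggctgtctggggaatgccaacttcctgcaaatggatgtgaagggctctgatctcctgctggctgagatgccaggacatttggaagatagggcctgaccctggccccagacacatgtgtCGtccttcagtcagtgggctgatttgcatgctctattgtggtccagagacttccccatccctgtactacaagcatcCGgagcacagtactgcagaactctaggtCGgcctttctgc
Mug2: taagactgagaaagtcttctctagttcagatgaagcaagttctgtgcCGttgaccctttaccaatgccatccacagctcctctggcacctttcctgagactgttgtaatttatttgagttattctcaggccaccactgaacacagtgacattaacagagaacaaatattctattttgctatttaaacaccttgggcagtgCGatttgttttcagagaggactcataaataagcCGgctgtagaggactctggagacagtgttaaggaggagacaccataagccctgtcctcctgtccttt
Tex14: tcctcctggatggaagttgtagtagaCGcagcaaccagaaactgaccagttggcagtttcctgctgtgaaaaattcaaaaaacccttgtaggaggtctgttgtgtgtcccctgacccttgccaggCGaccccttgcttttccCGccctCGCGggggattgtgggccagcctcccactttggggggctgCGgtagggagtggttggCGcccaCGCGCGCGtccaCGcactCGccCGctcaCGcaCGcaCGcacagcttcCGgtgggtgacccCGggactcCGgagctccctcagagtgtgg
These lie on the plus strand at chr10:75948050-75948349, chr6:122006548-122006847 and chr11:87404815-87405114. The Vpreb3 and Mug2 promoters each held 3 CpGs with a GC content of 51.0% and 43.7%, and that of Tex14 held 20 CpGs with 62.3%, against a median of 7 CpGs over 32851 promoters. A search of both strands found the NR5A motif AAGGTCA (present in 4.72% of all promoters) and the GATA motif AGATAA (11.2%) in none of the 6 windows. The octamer ATGCAAAT (1.74% of all promoters), searched after the sequence had been seen, occurred once, on the reverse strand of the Vpreb3 window with its first base 45 bases before the start (position -45). A match describes letters, not binding.

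The number of cells passing the gate differed widely between the libraries. There were 5 cells at 2 wk, 69 at 3 wk, 263 at 4 wk, 78 at 5 wk and 107 at 6 wk. As a share of the 8044 cells that met every condition except the marker count, called Inha-high cells here, they made up 0.288% (exact binomial 95% interval 0.0936 to 0.671) at 2 wk and 3.48% (2.72 to 4.38) at 3 wk. The share was 13.5% (12 to 15.1) at 4 wk, 6.73% (5.36 to 8.33) at 5 wk and 8.76% (7.23 to 10.5) at 6 wk. The 4 wk library stood highest among these 5 libraries. The intervals cover counting error only, and with 1 library per age they do not rank the ages. Deeper cells have more chances to show a marker, so each cell was also thinned to 8000 UMIs and the gate applied again, which left out 891 shallower Inha-high cells. Cells that lost their Slc38a5 or Cyp19a1 UMIs in thinning could enter. The 7453 thinned Inha-high cells are thus not all among the 8044. The thinned shares were 0% (0 of 1645, exact interval up to 0.224), 1.32%, 9.91%, 2.54% and 3.30%, in order of age, with the 4 wk library again highest. The background share in stromal cells, given below, was also highest at 4 wk.

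**Figure D1:**
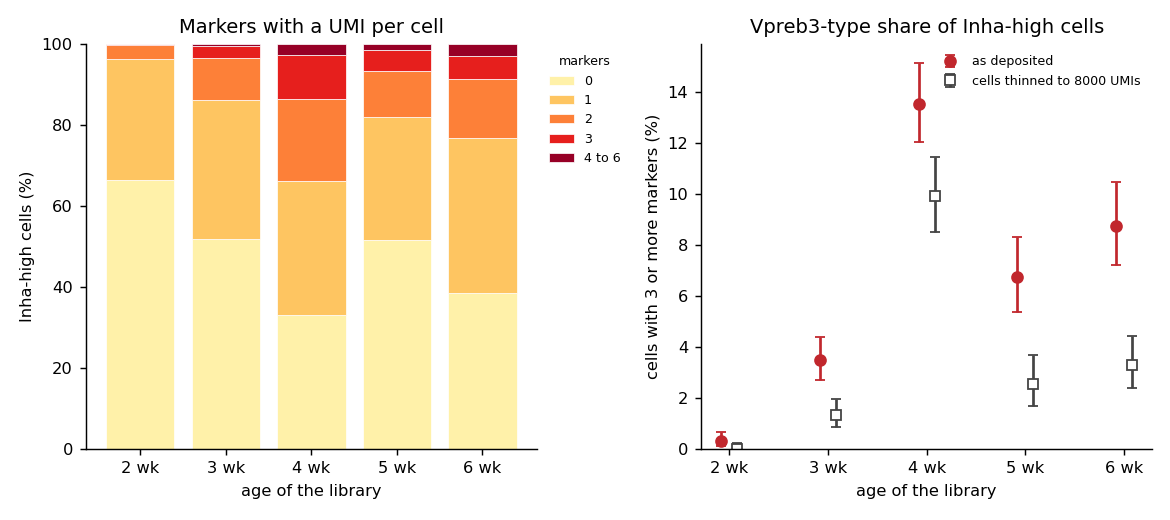
Left, Inha-high cells of each library (% of cells, bars stacked to 100) by how many of the 6 markers had a UMI. Right, share of Inha-high cells with 3 or more markers, as deposited (filled circles) and after thinning to 8000 UMIs (open squares), with exact 95% binomial intervals: both series are highest at 4 wk (13.5% and 9.91%).

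The gate cut through a gradient of marker detection. Among the Inha-high cells 3889 had none of the 6 markers, 2661 had 1 and 972 had 2, just outside the gate, while 403 had 3, just inside it. A further 97 had 4, 18 had 5 and 4 had all 6. The limits on Inha and Cyp19a1 lay close to few cells: 6 members had exactly 5 Inha UMIs and 1 cell with 4 was excluded, and requiring 0 UMIs of Cyp19a1 left 520 cells, while 10 UMIs of Inha left 479. The members' Inha UMIs ran from 5 through a median of 42 to 248. Before the last exclusions 2139 cells had 3 markers and 5 Inha UMIs, and of these 1453 had a UMI of Slc38a5, a glutamine transporter, 817 one of the mitotic gene Ube2c and 308 one of the stromal gene Dcn. Most cells with 3 of the markers were thus outside the gate for reasons other than the markers.

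Within the members, Tex14 was detected in 89.1% of cells, Vpreb3 in 76.1% (exact interval 72.2 to 79.7), Mug2 in 63.0%, Reln in 53.6%, and Cda and Gjc3 in 23.0% each. Vpreb3 had a UMI in 80%, 85.5%, 75.7%, 74.4% and 72.0% of cells from 2 to 6 wk, whereas Gjc3 had one in 20%, 4.35%, 22.1%, 17.9% and 41.1%. Vpreb3, at chr10:75943057-75949657 on the plus strand (GRCm38, GENCODE M21, with the RefSeq start inside the gene), stood at 48.2, 115, 118, 109 and 129 in the members on the scale of UMIs per total UMIs explained below (CPM), against 2.02, 12.4, 11.8, 11.9 and 9.30 in Inha-high cells with at most 1 marker. Since the gate counts Vpreb3, these levels are a description. Counts per cell were low: 50.9% of the cells with Vpreb3 had 1 UMI of it, as had 84.2% of those with Gjc3, and the most in a cell was 18 for Vpreb3. Stromal cells (at least 5 UMIs of Dcn, 13595 cells, median depth 10480 UMIs) gave the background, which includes free RNA: 2.28% had a UMI of Vpreb3 and 0.934% had 3 of the markers. By library the latter share was 0%, 0.0853%, 2.64%, 0.704% and 1.53%, each below that of the Inha-high cells, and over all libraries it was 0.0865% after thinning. The median depth of the members was 14636 UMIs and 3682 genes. From 3 to 6 wk it was 14351, 13170, 17155.5 and 19155 UMIs. Inha-high cells with at most 1 marker had 11891, 10019, 14400 and 14873, so the members were deeper in each of these libraries.

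Each marker was also read in cells chosen on the other 5. Cells with 3 of the other 5 were set against cells with at most 1, from the same libraries. The log2 difference was 1.83 ± 0.27 (SE) for Vpreb3, 2.88 ± 0.38 for Cda, 1.63 ± 0.19 for Mug2, 1.48 ± 0.37 for Gjc3, 1.64 ± 0.15 for Tex14 and 1.84 ± 0.28 for Reln. The left-out marker was higher in each library that had 20 such cells, 3 libraries for Vpreb3 and Tex14 and 4 for the others. Over all genes these 6 fits called 8.39%, 11%, 9.66%, 9.95%, 5.85% and 9.31%, in the order above. Depth was not matched between the cells in these fits. The markers were proposed from these same cells, so the values describe how they go together and carry no test.

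**Figure D2:**
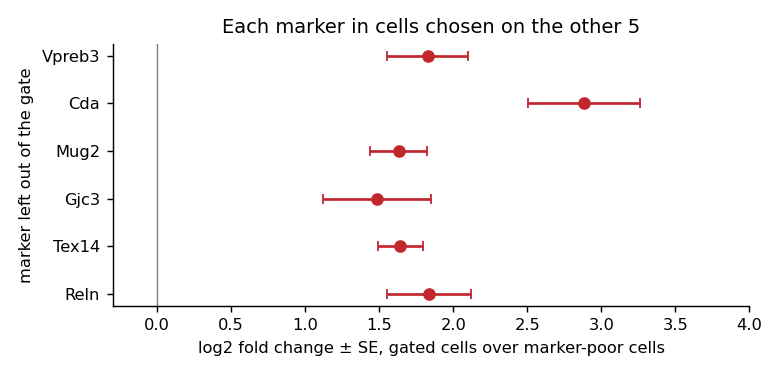
Log2 difference (points, bars are the SE of the fit over 3 or 4 libraries) of each marker between cells with at least 3 and cells with at most 1 of the other 5 markers. All 6 differences lie between 1.48 and 2.88.

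The granulosa part of the label was checked against markers of granulosa and other ovarian cells. Its antral part was not checked in this way, and remodeling granulosa cells were not used as a reference. All 10 genes of a granulosa identity list were detected, summing to 1678 CPM (UMIs scaled to a total of 1e6 in the same cells, the scale of every level below), against 1957 in marker-poor cells, which are the 6550 Inha-high cells with 0 or 1 marker. From 3 to 6 wk these sums were 2222, 1641, 1434 and 1613 CPM against 2382, 1653, 1062 and 1911. B cell markers summed to 2.80 CPM, with Cd79b, Ms4a1, Pax5, Ighm and Igll1 among those at 0 and 19 UMIs of Cd79a in 18 cells, against 3.17 CPM in marker-poor cells and 2.53 in stromal cells. Oocyte markers summed to 1.58 CPM (Bmp15, Figla and Zp3 at 0) and hematopoietic markers to 0.608 CPM (Ptprc at 0). In marker-poor cells these sums were 1.51 and 6.64 CPM. The hematopoietic genes Tyrobp and Cd52 were called lower in the members in edgeR's test described below. Stromal markers summed to 26.3, 112, 17.9 and 39.0 CPM from 3 to 6 wk against 76.2, 117, 136 and 72.3 in marker-poor cells. Over all ages Col1a2 was the most abundant of them in the members and all 7 genes were detected. In stromal cells they summed to 6473 CPM.

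Some members carried RNA of other cell types. Smooth muscle markers summed to 58.2, 316, 216 and 335 CPM from 3 to 6 wk against 91.0, 354, 107 and 275 in marker-poor cells, led by Acta2 with 1198 UMIs in 159 cells. Endothelial markers summed to 2.82, 7.23, 68.6 and 39.0 CPM against 5.81, 12.7, 28.1 and 12.2. Both sums were thus above the reference at 5 and 6 wk and below it at 3 and 4 wk, but of the 688 smooth muscle UMIs at 6 wk 192 were of Acta2 in 1 cell. All 5 genes of each were detected, and none was called against marker-poor cells in edgeR's test described below (the counts at an unadjusted p under 0.05 were 0 and 1). Pericyte markers summed to 0, 0.556, 15.7 and 111 CPM from 3 to 6 wk against 5.43, 6.11, 9.96 and 14.0 in marker-poor cells. Over all ages they reached 30.7 against 7.05 CPM, and 123 of the 215 Rgs5 UMIs came from 1 cell of the 4 that had any. The part of these RNAs in the results below was not tested beyond leaving out such cells. At 5 wk, 333 UMIs of Ccl21a, whose near-identical copies cannot be told apart, came from 1 cell. No doublet caller was run. At least 2 UMIs of genes of another lineage were found in 38.5% of members, 38.7% of marker-poor cells and 56.2% of the Slc38a5-positive cells compared below, and without such cells 321 members remained. These genes were the hematopoietic, stromal, theca, smooth muscle, endothelial and pericyte markers, with the UMIs counted list by list. Between 18 and 35 cell barcodes were shared by each pair of libraries, at most 0.399% of the smaller one.

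Against marker-poor cells, Itih5, Col11a1, Pid1 and Ghr were higher in the members, and Wnt6, Gatm and Kctd14 were lower. UMIs were summed per library and population, and edgeR's quasi-likelihood test was run with library as a block over the 4 libraries from 3 to 6 wk, since the 2 wk sum holds 5 cells. Of 12795 genes tested, 1408 (11%) had a Benjamini-Hochberg adjusted p under 0.05, 716 higher and 692 lower in the members. Without the library size correction (TMM), which moves the median of all genes from -0.03 to -0.13, the split was 483 higher and 1028 lower. The blocks are ages, so these p-values measure how regularly a difference recurred from age to age and not the spread between mice. Without the 4 wk library 659 genes were called, and without 6 wk 721.

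Itih5, whose product binds hyaluronan in the matrix, had the smallest adjusted p among the named genes outside the gate that rose. Its level in the members was 28.9 CPM at 2 wk, 191 at 3 wk, 795 at 4 wk, 549 at 5 wk and 575 at 6 wk, against 31.8, 57.0, 296, 149 and 184 in marker-poor cells. From 3 wk on every member value stood above the reference of its own library, and at 2 wk the 3 UMIs of the members gave no difference. The fitted difference was 1.76 ± 0.09 on the log2 scale (3.40-fold, adjusted p = 4.75e-06). Cells with 2 markers lay between, at 125, 614, 319 and 396 CPM from 3 wk on. Stromal cells had 1006 CPM of Itih5, and the stromal marker list stood in the members at or below its level in marker-poor cells of the same library, as given above. The gene lies at chr2:10153571-10256529 on the plus strand (GRCm38, GENCODE M21).

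Col11a1, a chain of a fibrillar collagen, followed the same order with 64.8, 376, 174 and 259 CPM in the members from 3 to 6 wk and 24.5, 124, 37.7 and 67.3 in marker-poor cells (log2 difference 1.91 ± 0.12, adjusted p = 4.10e-05). Pid1, an adaptor that binds lipoprotein receptors, stood at 61.9, 195, 128 and 134 CPM against 13.5, 72.5, 21.3 and 33.8 (2.10 ± 0.16, 7.17e-05). Both genes were thus above the reference at each of the 4 ages, and both peaked at 4 wk in either population. Ghr, the growth hormone receptor, gave 13.1, 157, 132 and 190 CPM against 6.81, 77.7, 43.5 and 57.0 (log2 difference 1.50 ± 0.14). Adamts5, a protease that cleaves proteoglycans, gave 3.75, 100.4, 95 and 140.3 against 1.90, 30.7, 15.9 and 50.6 (1.95 ± 0.18). These receptors and proteases were scarce in the members at 3 wk and more abundant from 4 wk on. Ctgf, a matricellular protein, gave 117, 285, 312 and 354 CPM against 56.2, 129, 78.1 and 83.1 (1.69 ± 0.17). The other genes with the largest rises were Ntng1 (2.12 ± 0.17), a membrane-anchored netrin, Sytl2 (1.65 ± 0.23), a vesicle-docking protein, the cytoskeletal Pdlim1 (1.54 ± 0.13) and Ank3 (1.48 ± 0.13), Arhgap6 (1.52 ± 0.25), a GTPase-activating protein, and Sncaip (1.47 ± 0.20), which binds alpha-synuclein.

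**Figure D3:**
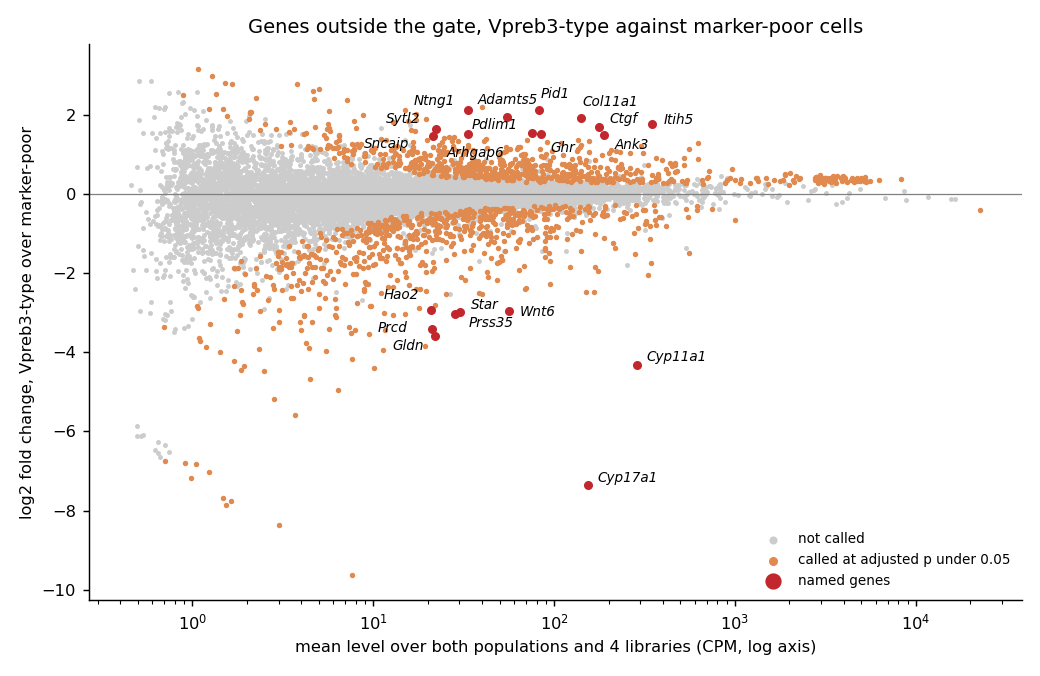
Log2 fold change of each gene outside the gate (vertical axis, members over marker-poor cells, 4 libraries) against its mean level over both populations (horizontal log axis, CPM). Grey points were not called, orange ones were called at an adjusted p under 0.05, and the 20 labelled genes are those named in the text. Cyp17a1 and Cyp11a1 lie far below the rest at their level.

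Genes of earlier follicles were set beside the same reference. Wnt6, a ligand of preantral granulosa cells, was at 26.3, 9.45, 3.57 and 9.74 CPM in the members and at 102, 63.9, 141 and 94.7 in marker-poor cells from 3 to 6 wk, and the populations did not overlap at those ages (-2.96 ± 0.30, adjusted p = 3.37e-04). Of 6 preantral genes tested, 3 were lower and 0 higher: Wnt6, the creatine synthesis enzyme Gatm (-2.39 ± 0.17) and Kctd14 (-1.49 ± 0.16), with a list median of -1.65 beside -0.03 over all genes. Against the Slc38a5-positive cells described below 1 of the 6 was higher (Gatm, 0.70 ± 0.22) and 1 lower (Igfbp2, -0.44 ± 0.11), with a median of 0.36. Gldn, an adhesion protein, was lower (-3.58 ± 0.20), as were Prcd (-3.41 ± 0.25) and Prss35 (-3.04 ± 0.57), a serine protease-like protein of the ovary. Prss35 was no longer called by DESeq2 (adjusted p = 0.119) or without cells carrying UMIs of another lineage (0.0522).

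Of 14 steroid and cholesterol synthesis genes, 6 were lower and 0 higher (list median -0.98). They were Cyp11a1 and Star, which start steroid synthesis from cholesterol, the scavenger receptor Scarb1, which takes up lipoprotein cholesterol, and Idi1, Sqle and Fdft1 of the cholesterol pathway. These differences rest partly on 1 library. Theca markers, those of the androgen-making cells around the follicle, summed to 4214 CPM in marker-poor cells at 5 wk against 53.6 in the members, with Cyp11a1 at 2226 CPM there and at 4.29 in the members. Without the 5 wk library 5 of the 14 were called, without cells carrying UMIs of another lineage 3 of 13, and Cyp11a1 went from -4.32 (adjusted p = 0.0450) to -1.44 (0.0612; 0.114 without 3 wk and 0.143 without 6 wk) and Cyp17a1, an androgen enzyme, from -7.36 to -2.67 (0.0262). Of the 64 Cyp11a1 UMIs in the members, 51 came from 1 cell. Star (-2.99 ± 0.61, adjusted p = 0.0111) was not called by DESeq2 (adjusted p = 0.298), without the replicate block (0.255), without cells carrying UMIs of another lineage (0.127) or in members with at least 4 markers (0.787). The last of these fits held 2 libraries, 4 and 6 wk, and so lacked 5 wk. Without the 5 wk library the log2 fold change of Star was -1.13. Hao2, a peroxisomal oxidase, behaved in the same way, at -2.93 with all 4 libraries and -0.50 (0.534) without 5 wk, and was not called by DESeq2 (0.514) or without cells carrying UMIs of another lineage (0.879). The markers of another lineage include Cyp11a1 and Cyp17a1, so leaving out cells that carry them removes theca RNA by construction. How far theca RNA in the 5 wk reference enters these values was not tested.

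The granulosa identity genes split. Of 9 tested, Fst, which encodes the activin antagonist follistatin, the estrogen receptor Esr2 and the nuclear receptor Nr5a2 were higher, and Foxl2, Gata4, Wt1, Emx2 and Amh were lower (list median -0.56). Nr5a2 stood at 669, 545, 443 and 574 CPM in the members and 459, 332, 204 and 518 in marker-poor cells from 3 to 6 wk (0.72 ± 0.13, adjusted p = 0.00573). Foxl2, a transcription factor that holds the granulosa fate, stood at 97.6, 58.7, 90.0 and 121 CPM against 202, 143, 143 and 253 (-0.93 ± 0.10, adjusted p = 4.81e-04). At each age Nr5a2 was thus above and Foxl2 below the reference of the same library. Amh, the hormone of small growing follicles, gave -0.78 ± 0.10.

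FSH response and antral growth genes were mixed, with 2 higher (Tdrd5, 1.21 ± 0.10, and the steroid-inactivating enzyme Akr1c14, 1.05 ± 0.10) and 3 lower of 14 tested (Ccnd2, Inhbb and Lhcgr). Lhcgr, the receptor of luteinizing hormone, had 0 UMIs in the members and 58.8 CPM in marker-poor cells at 5 wk, where theca markers were also high. Fshr, the FSH receptor, stood at 7.51, 5.84, 2.86 and 9.26 CPM in the members against 2.52, 2.31, 2.56 and 6.37 in marker-poor cells (1.03 ± 0.32, adjusted p = 0.0660), above the reference in each library but not past the threshold. Of 10 cumulus genes 5 were higher, among them the amino acid transporter Slc38a3 (1.35 ± 0.15) and Igf1 (0.52 ± 0.09), and Kitl, the oocyte growth signal, was lower (-1.85 ± 0.21), but without 4 wk 1 was higher and without 6 wk 2. The 3 connexins tested were higher, with Gja1, the main gap junction protein of granulosa cells, at 0.64 ± 0.10, though 1 of 3 was still called without 3, 5 or 6 wk. Gja4, also known from endothelium, had 46 UMIs in the members and was higher in 3 of 4 libraries. Against Slc38a5-positive cells, described below, Gja1 was lower (-0.34 ± 0.06) and 0 connexins were higher. Of 21 atresia and remodeling genes 8 were higher and 3 lower, with a list median of 0.51. The 8 were Adamts5, Itih5, Ghr, the kinase inhibitor Pik3ip1 (1.18 ± 0.10), the estrogen-metabolizing Cyp1b1 (0.86 ± 0.12), Bmp2 (0.74 ± 0.15), the death gene Bcl2l11 (0.51 ± 0.12) and the lysosomal protease Ctsl (0.51 ± 0.10). Cyp1b1, Bmp2 and Apoe, which was lower (-0.74 ± 0.11), are among the genes the study itself picked from these libraries, so the count is no independent evidence of a direction.

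Genes of the pathways that the markers belong to are set beside the 11% of all genes that were called. Of 7 reelin pathway genes 1 was called, the kinase Fyn, lower at -0.63 ± 0.10, and Dab1, which relays the reelin signal, had 1 UMI in the members. Of 13 pyrimidine genes 3 were higher, Cad, Umps and Dctd (0.65 ± 0.17, 0.63 ± 0.09 and 0.47 ± 0.13). Of the alpha-2-macroglobulin family and serpins, Mug1 was higher (2.10 ± 0.27), though its reads could not be told apart with certainty from those of its close copy Mug2, and 4 of 8 were lower. Kif23 was lower (-1.05 ± 0.25) among 3 bridge genes. Neither edgeR nor DESeq2 called any of 16 S phase or 13 mitotic genes, and edgeR gave an unadjusted p under 0.05 for 1 and 4 of them. Of 13 immediate early and heat shock genes 2 were higher, Jun (0.42 ± 0.09) and Dnajb1 (0.55 ± 0.15), against 0 without 4 wk and 8 without cells carrying UMIs of another lineage. The reelin count, 1 of 7, and this one, 2 of 13, are near the 11% over all genes. Glycolysis had 2 higher and 1 lower of 11, and the basal lamina and matrix list 0 higher and 3 lower of 14 (Vcan, Itga6 and Col4a2).

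Slc38a5-positive cells, which also carried the 6 markers, were the next reference. They had at least 5 UMIs of Inha, 2 of Slc38a5, at most 1 of Cyp19a1 and none of Ube2c or Dcn. There were 2089 of them (27, 181, 778, 494 and 609 from 2 to 6 wk, median depth 17874 UMIs), and 22.9% had 3 or more of the 6 markers, 8.45% after thinning against 3.48% of the thinned Inha-high cells. Of 11036 genes tested, 2169 (19.7%) were called, 992 higher and 1177 lower in the members. Without 4 wk 964 were called and without 6 wk 1265. Smooth muscle markers summed to 146, 223, 156 and 121 CPM in Slc38a5-positive cells from 3 to 6 wk and endothelial markers to 2.22, 8.24, 28.9 and 3.46. Myh11, a smooth muscle myosin (1.82 ± 0.57, adjusted p = 0.0393), and Cdh5, an endothelial cadherin (1.82 ± 0.41, 0.00826), were called higher in the members, and 2 of the 5 smooth muscle and 4 of the 5 endothelial genes had an unadjusted p under 0.05. These levels came from few cells: 143 of the 152 Myh11 UMIs at 4 wk and 67 of the 77 at 6 wk were in 1 cell each, and the 42 Cdh5 UMIs were in 6 of the 522 members.

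Among the named genes the activin and inhibin subunits differed most. Inhba stood at 28.2, 15.3, 101 and 43.9 CPM in the members from 3 to 6 wk and at 994, 143, 536 and 983 in Slc38a5-positive cells, a 12.8-fold lower level (-3.67 ± 0.30, edgeR adjusted p = 6.86e-06). Inhbb stood at 62.9, 9.73, 21.4 and 12.7 CPM against 847, 198, 177 and 333, which is 15.5-fold lower (-3.96 ± 0.17, 2.81e-08). Neither gene's values overlapped between the populations at these ages. Psd (-3.02 ± 0.31), Nap1l5 (-1.92 ± 0.23) and the replication factor Pclaf (-1.92 ± 0.24) were also lower. Col11a1 (1.75 ± 0.11), Arhgap6 (1.74 ± 0.17), the collagen VI chains Col6a3 (1.73 ± 0.14) and Col6a4 (1.70 ± 0.14) and Ghr (1.69 ± 0.13) were the named genes that were higher. Col11a1, Arhgap6 and Ghr were thus among the named genes of both comparisons. Of 11 FSH response genes 8 were lower and 2 higher, and of 8 cumulus genes 4 were lower and 0 higher.

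Cell cycle and glycolysis genes were lower as groups. Of 16 S phase genes 15 were lower and 0 higher (list median -1.14 beside -0.00 over all genes), for instance Mcm6, a helicase subunit, at 128, 62.8, 50.7 and 60.9 CPM against 165, 131, 88.2 and 87.8 (-0.68 ± 0.11, adjusted p = 0.00115). Each member value of Mcm6 was below the Slc38a5-positive value of its own library. Of 11 mitotic genes 9 were lower and 0 higher (-1.55), among them Ccnb2 (-3.38 ± 0.27) and Top2a (-1.23 ± 0.18), and 3 of 7 without 4 wk. Cells with a UMI of Ube2c had been left out of both populations. Of 11 glycolysis genes 8 were lower and 0 higher (-0.78), among them Eno1 (-1.24 ± 0.09), Pgk1 (-0.96 ± 0.08) and Gapdh (-0.93 ± 0.06). Over cells of 10000 to 20000 UMIs in both populations, 11 of 16 S phase and 7 of 11 glycolysis genes were lower.

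Immediate early and heat shock genes were higher, 11 of 13 with 0 lower (list median 0.38). Jun, a subunit of the AP-1 factor, stood at 3844, 3614, 3404 and 1766 CPM in the members and 2627, 2867, 2932 and 1583 in Slc38a5-positive cells (0.34 ± 0.06, adjusted p = 0.00116). The members were above at each age, although their 6 wk value was below every Slc38a5-positive value from 3 to 5 wk. Over cells of 10000 to 20000 UMIs 5 of the 13 were called. Hspa1a and Hspa1b, near-identical genes whose reads may be shared, were both among the 11. Atresia and remodeling genes were higher in 11 and lower in 1 of 21 (median 0.53), and 7 were higher without 4 wk or by DESeq2. In front were Ghr (1.69 ± 0.13), Adamts5 (1.49 ± 0.21), Itih5 (1.43 ± 0.10) and Pik3ip1 (1.32 ± 0.15). Bmp2, Cxcl1, Atf3, Apoe, Cyp1b1 and Sox4 among the 11 were picked by the study from these libraries, so this count too is no independent evidence. Wt1 was higher (1.14 ± 0.12) and Nr5a2 by 0.24 ± 0.07, whereas Fst (-0.54 ± 0.10) and Amh (-0.59 ± 0.17) were lower.

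**Figure D4:**
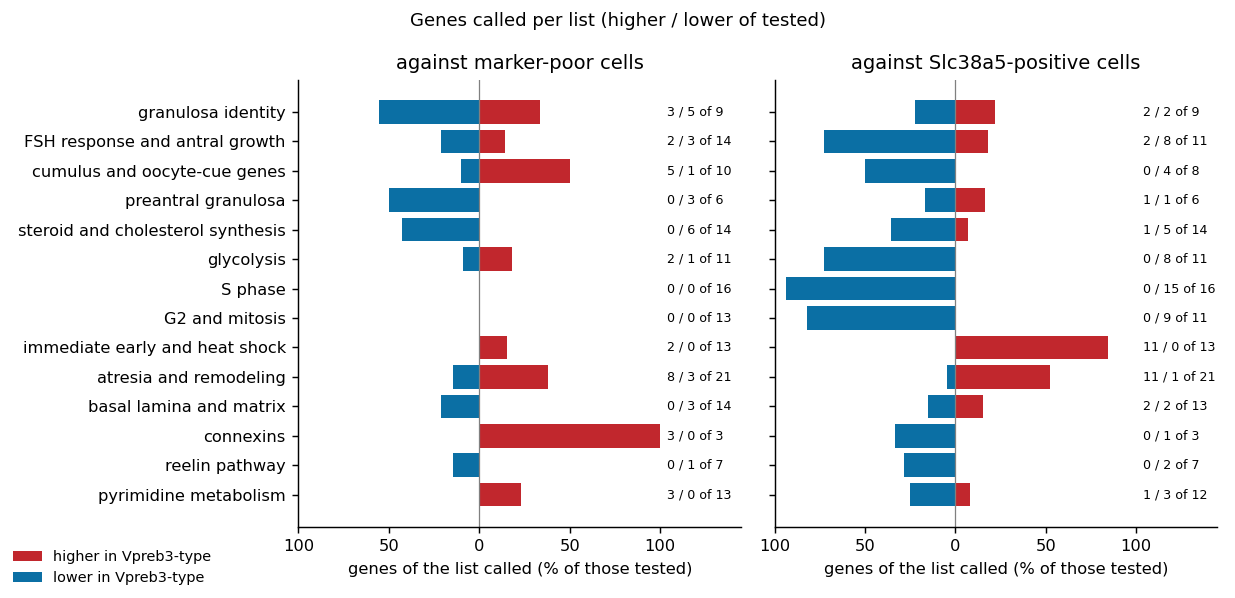
Genes called per list, as % of the list's tested genes, higher (red, right) or lower (blue, left) in the members, against marker-poor cells (left panel) and Slc38a5-positive cells (right panel), with the counts printed. S phase and mitotic genes had 0 calls on the left and 15 of 16 and 9 of 11 lower on the right.

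Aromatase-positive cells could not be compared as planned, because cells with 3 UMIs of Cyp19a1 and none of Slc38a5, Ube2c or Dcn numbered 60 over the series (24, 0, 0, 8 and 28 from 2 to 6 wk). With 2 UMIs of Cyp19a1 at any level of Slc38a5, a choice made after the counts were seen, 3 libraries gave at least 20 cells each (3, 5 and 6 wk), and 1305 of 9337 genes (14%) were called. Inhba was 75.6-fold lower in the members (-6.24 ± 0.25, edgeR adjusted p = 2.86e-09) and Inhbb 42.2-fold (-5.40 ± 0.33), and Cyp11a1 (-6.27 ± 0.34), the epididymal-type cystatin Cst8 (-4.64 ± 0.40) and Psd (-4.26 ± 0.33) were lower too. Ntn4 (4.13 ± 0.34), Ghr (4.05 ± 0.25), the actin-binding Cald1 (3.99 ± 0.29), the collagen chain Col9a2 (3.98 ± 0.24) and Sorbs2 (3.91 ± 0.32) were higher. The members are the same cells in the 3 comparisons, so recurring genes are not separate evidence.

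**Figure D5:**
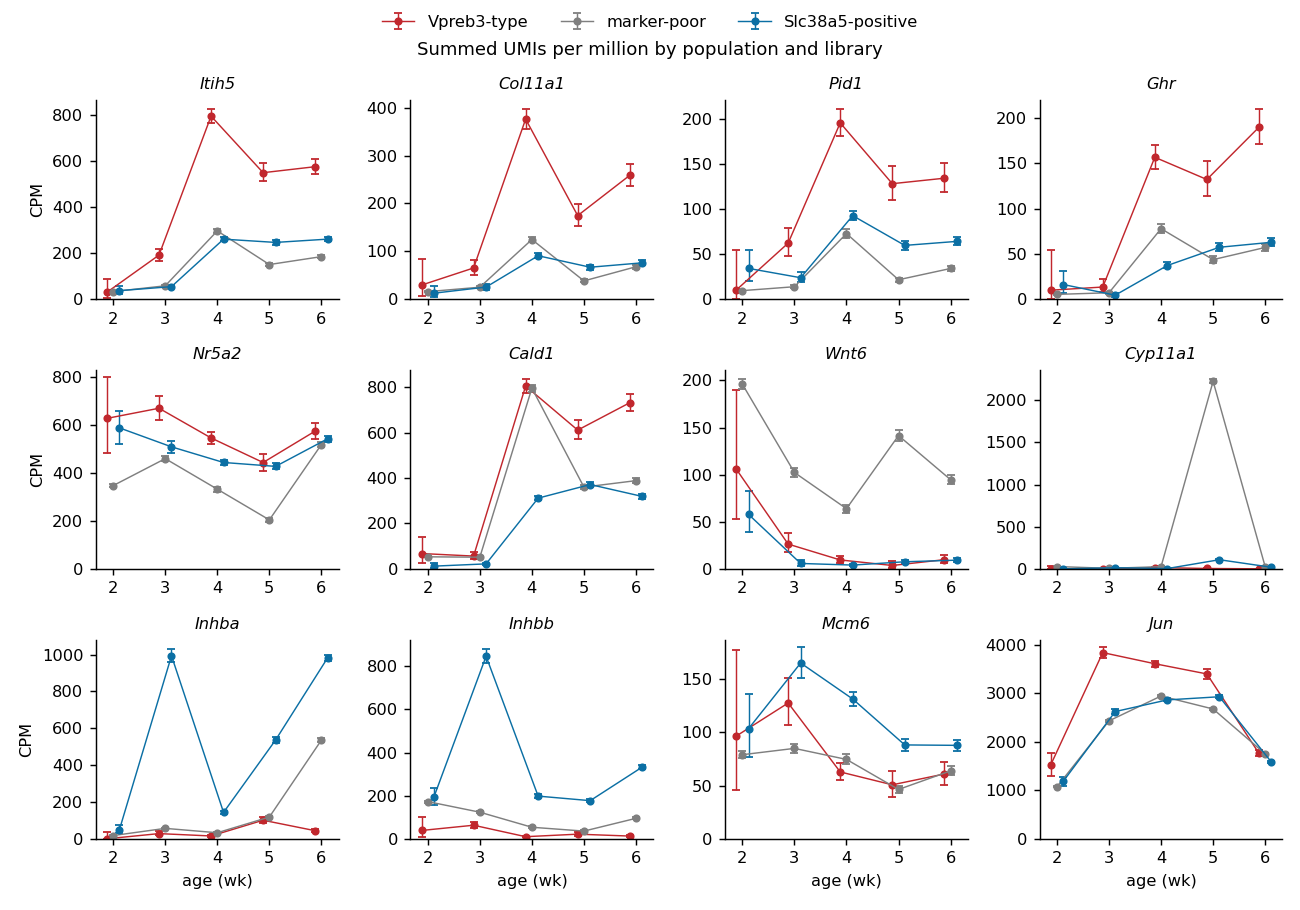
Summed levels (CPM, linear axes from 0) of 12 genes by age in the members (red), marker-poor cells (grey) and Slc38a5-positive cells (blue), with exact 95% Poisson intervals. The 2 wk member point stands for 5 cells; Itih5, Col11a1 and Pid1 are highest in the members from 3 wk on, and Inhba and Inhbb in Slc38a5-positive cells.

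Cells with 4 or more markers (0, 10, 55, 18 and 36 from 2 to 6 wk) were set against those with 3 by summed CPM. This is a description with no test: the ratio mixes ages, and its interval covers counting error only, as if the UMIs of a cell were independent. Col11a1 was at 1.54 times the level (exact interval 1.41 to 1.69), Adamts5 at 1.36 (1.17 to 1.59) and Itih5 at 1.27 (1.20 to 1.35). Igfbp5, a binding protein of insulin-like growth factors, was at 0.308 (0.205 to 0.446), Inhba at 0.289 (0.189 to 0.427), Kctd14 at 0.443 (0.388 to 0.505) and Hsd3b1, a steroid dehydrogenase, at 0.484 (0.423 to 0.553). Matrix genes were found on both sides of 1, since Col1a1 was at 0.140 (0.0373 to 0.372), Col3a1 at 0.436 (0.209 to 0.826) and Fn1 at 0.425 (0.195 to 0.829). Rgs5, whose UMIs came from 4 cells, was at 37.0. Within libraries from 3 to 6 wk, Col11a1 stood at 85.3, 447, 317 and 355 CPM with 4 or more markers against 61.3, 357, 130.2 and 197 with 3, higher in each library. Itih5 stood at 118, 908, 694 and 677 against 203, 763, 504 and 510, lower at 3 wk and higher after it. Kctd14 stood at 236, 57.4, 275 and 116 against 625, 155, 244 and 296, lower at all ages but 5 wk. Wnt6 gave 0.670 (0.378 to 1.13), an interval that spans 1.

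Levels in the members by age are set by few cells at 2 wk, where 3 UMIs amount to 28.9 CPM. Between 5 and 2 wk, the ages the study contrasts in antral cells, 983 genes had at least 200 UMIs over both sums, and 131 (13.3%) were past 2-fold, 106 with a ratio over 2 and 23 under 0.5, besides 2 with 0 UMIs at 2 wk. The sums held 1399363 UMIs at 5 wk and 103668 at 2 wk. A gene high only at 2 wk thus needed a far higher CPM to reach 200 UMIs. The split between rising and falling genes depends on this limit and is not read as a direction. Hsd3b1 went from 1572 to 183 CPM (ratio 0.116, exact interval 0.0952 to 0.142) and Kctd14 from 1350 to 252 (0.186, 0.153 to 0.228), and Gas6, a ligand of TAM receptors, and Serpinb6a had ratios of 0.225 and 0.344. At the other end Acta2 and Ccl21a had 0 UMIs at 2 wk. At 5 wk they stood at 5.19 and 8.22 times a floor of 3 UMIs over the 2 wk sum, Ccl21a from 1 cell. The lower limits of their exact intervals were 4.18 and 6.65. AY036118 (54.3, 9.72 to 2148), Apoe (31.9, 5.69 to 1261) and Gadd45b (31.3, 5.58 to 1238) had 1 UMI each at 2 wk. Over the floor of 3 UMIs they stood at 18.1, 10.6 and 10.4. The change of Cell Ranger version between 4 and 5 wk cannot be told apart from age.

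Besides Inha, which the gate uses and which was at 0.448 (0.410 to 0.490) of its 2 wk level at 5 wk, the study compares 14 genes between follicle waves, and 5 of these had enough UMIs at 2 and 5 wk. Grb14, an adaptor that dampens insulin signaling, had a 5 over 2 wk ratio of 13.7 (6.61 to 34.1), Cald1 of 9.06 (4.38 to 22.6) and the protease Mmp11 of 4.01 (1.82 to 11.02), and 0 of the 5 were under 0.5. That count follows from the limit of 200 UMIs, which favors genes high in the larger 5 wk sum, and is no result. Wnt4, Igfbp5 and Itga6 had fewer than 200 UMIs and ratios of 0.0839 (0.0570 to 0.124), 0.0815 (0.0482 to 0.138) and 0.129 (0.0851 to 0.197). Ghr, also under 200 UMIs and with 1 UMI at 2 wk, went the other way at 13.7 (2.43 to 544). The study picked Wnt4, Igfbp5, Itga6, Cald1, Ghr, Grb14 and Mmp11 from the same libraries, so their direction is no independent evidence. Between 6 and 4 wk, both with over 100 members, 108 of 3865 genes (2.79%) were past 2-fold. Crabp2, which carries retinoic acid, was at 4.88 times its 4 wk level (3.61 to 6.67), Cebpb, a transcription factor, at 3.60 (2.99 to 4.34) and the noncoding Snhg6 at 4.20, with AY036118 at 7.10 and Lars2 at 3.49. Lrrfip1 (0.158), Atf3 (0.262, 0.208 to 0.328), Pim1 (0.307), Foxo3 (0.332) and Hmga2 (0.349) were at the low end. Of 10 wave genes 1 was past 2-fold, Hsd17b1 at 2.49 (2.09 to 2.98). Wnt4 (1.77, 1.37 to 2.28), Itga6 (1.96, 1.52 to 2.53) and Igfbp5, which had under 200 UMIs (2.25, 1.55 to 3.28), were above 1 between 4 and 6 wk, whereas all 3 were below 1 between 2 and 5 wk. The counts past 2-fold rest on other genes and depths in each pair of ages and are not compared.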

How the data were processed

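The authors aligned reads to the mouse genome with Cell Ranger and deposited raw UMI counts per gene and cell (per the file headers Cell Ranger 3.1.0 at 2, 3 and 4 wk and 6.0.1 at 5 and 6 wk; the submitters' processing notes name mm10 and Seurat 4.1.0). From these deposited counts, cells were gated per library, UMIs were summed per library and population (at least 20 cells), and edgeR 4.0.16 in R 4.3.3 was run with glmQLFit and glmQLFTest, TMM, filterByExpr and library as a block, two-sided, with Benjamini-Hochberg adjustment and calls at 0.05. DESeq2 1.42.0 was an alternative. The edgeR test was tested on simulated data, where it found 71 of 100 changes of 2-fold for the marker-poor comparison (12795 genes) and 78 of 100 for the Slc38a5-positive one (11036 genes). It also called 8 and 2 unchanged genes, in that order. The simulated counts had a fixed dispersion and the same gene means at each age. They thus do not cover age differences or UMIs concentrated in single cells. The replicate number is 1 at each age, so both populations of a library are paired by library. Nothing says how many mice a library holds, and p-values measure the spread between these libraries.

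Intervals are at 95%: exact Poisson for levels, Clopper-Pearson for shares, conditional exact for ratios. The floor is 3 UMIs. Named genes are, among called genes of mean CPM of at least 20 with the same direction in every library (ribosomal, mitochondrial and unnamed genes aside), the 12 highest and 8 lowest fold changes against marker-poor cells and the 5 highest and lowest elsewhere, the 5 highest and lowest age ratios, the gate markers, and list members called or abundant. Not every gene that this rule picks is reported here. The cells, markers and gene lists were chosen with earlier results of these data known. Python 3.11.15 (numpy 2.4.6, pandas 2.3.3, scipy 1.17.1) and matplotlib 3.10.9 were used. Unfiltered barcodes were not used here.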

Additional observations from a re-analysis of the deposited data

Results flagged for a closer look

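In 8 listed pairs of gene and reference, the members' level over that of the reference had counting intervals on opposite sides of 1 in different libraries. The list is not complete. Rgs5, for instance, had 0 UMIs in the members at 4 wk against 3.65 CPM in marker-poor cells. At 6 wk it stood at 97.0 against 8.08 CPM, the former from 2 cells. None of these differences between libraries was tested, since each age is 1 library. Against marker-poor cells, Acta2, a smooth muscle actin, was at 2.84 times the reference at 5 wk and 0.439 at 3 wk, and 51.1% of its 6 wk UMIs came from 1 cell. Hsd3b1 was at 1.36 at 3 wk and at 0.480, 0.100 and 0.239 from 4 to 6 wk. Nap1l5, an imprinted gene, was at 3.25 at 5 wk and 0.558 at 6 wk, and the stress factor Atf3 at 1.45 at 3 wk and 0.821 at 4 wk. Hmga2, a chromatin protein, was at 1.49 at 5 wk and 0.670 at 6 wk.

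Against Slc38a5-positive cells, Acta2 was at 2.42 at 6 wk and 0.294 at 3 wk. Kctd14 was at 1.25 at 3 wk and 0.403 at 4 wk, and the transcription factor Sox4 at 1.61 at 4 wk and 0.914 at 5 wk.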

How the results depend on the processing

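Of 387 values of 30 pairs of named gene and reference under the alternatives, 350 kept their direction and their side of the threshold, 37 were no longer called and 0 reversed; the cause was not tested. Of the 37, 24 came from the fit without the replicate block, that is without pairing the populations of a library, which called 55 genes against marker-poor and 21 against Slc38a5-positive cells. Leaving out 1 library gave 659 to 1353 and 964 to 2083 genes called. Against marker-poor cells the count was otherwise 993 (cells thinned) to 1992 (no cells with UMIs of another lineage), with 783 of the 1408 genes also called after thinning. DESeq2 called 1170 genes there and 1320 against Slc38a5-positive cells, 1317 of them shared with edgeR. The members numbered 1494 with 2 markers required, 119 with 4, 321 without cells with UMIs of another lineage and 259 after thinning. Genes past 2-fold between 5 and 2 wk numbered 73 over cells of 10000 to 20000 UMIs and 56 without cells with UMIs of another lineage, where fewer genes had enough UMIs, and could not be computed at 4 markers, with 0 cells at 2 wk. Thinning, 4 markers, the reference with no marker, the 2 wk library kept in and the 6 over 4 wk ratio were chosen after seeing the data. Depth limits the 2 wk values: the floor of 3 UMIs stands at 28.9 CPM there, so 0 UMIs do not show that a gene was absent.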

Other observations

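Ribosomal protein genes, a group chosen after its values were seen, were higher in the members than in marker-poor cells, with 77 of 80 called and 0 lower in edgeR's test. Their median log2 difference was 0.36, 57 were called without TMM, 69 after thinning, 19 without 4 wk and 28 without 6 wk. Against Slc38a5-positive cells 41 were higher and 1 lower of the 80, at a median of 0.14. The median mitochondrial share of UMIs was 6.28% in the members, 7.88% in marker-poor cells and 6.18% in Slc38a5-positive cells, and its part in these values was not tested.

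Among the 14 wave genes of the study other than Inha, 7 were higher and 4 lower in the members than in marker-poor cells, beside 11% called over all genes. They were led by Ghr (1.50 ± 0.14) and Grb14 (1.28 ± 0.10) on one side and Igfbp5 (-2.47 ± 0.22), Wnt4 (-1.95 ± 0.23) and Itga6 (-1.85 ± 0.16) on the other. Grb14 stood at 149, 1185, 923 and 1157 CPM from 3 to 6 wk against 49.7, 598, 476 and 474. Against Slc38a5-positive cells, where 19.7% of all genes were called, 5 were higher and 5 lower, with Itga6 higher there (0.73 ± 0.18) and Igf1 lower (-0.49 ± 0.11). Wnt4, Igfbp5, Itga6, Cald1, Ghr, Grb14 and Mmp11 among the 14 were picked by the study from the same libraries.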
